A study of Homo sapiens with 6 samples.

Results

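The ATF4 and CHOP stress axis is described here through 10 genes chosen by name: the transcription factors ATF4, DDIT3 (which encodes CHOP), ATF3, ATF5 and CEBPB, the effectors TRIB3, CHAC1, DDIT4 and SESN2, and the feedback phosphatase subunit PPP1R15A. These genes, and the lists set beside them below, were chosen with earlier results of these data known. All 10 were found among the 60604 genes of the count table used, and all 10 passed the filter on low counts, which kept 15022 genes. RNA was sequenced from wild-type MIA PaCa-2, a long-established line grown from a human pancreatic carcinoma. In the BP group 3 libraries came from cells given 12.5 µg/ml of black phosphorus (BP), an allotrope of phosphorus built of stacked sheets. In the BP+Huaier group 3 libraries came from cells given the same dose of BP together with 10 mg/ml of Huaier, the fungus Trametes robiniophila used in Chinese medicine. Both groups thus carry BP, untreated cells were not analysed here, and the labels name no treatment time. They also do not say whether a group holds separate cultures, so each p-value rests on the spread among 3 libraries that may be technical replicates.

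The integrated stress response starts when a kinase that senses amino acid shortage, unfolded protein in the endoplasmic reticulum (ER), double-stranded RNA, heme shortage or mitochondrial stress phosphorylates the initiation factor eIF2 alpha. General translation then slows, while the ATF4 transcript is translated more through upstream open reading frames, so that ATF4 is controlled largely at the level of protein, which RNA sequencing does not measure. ATF4 and its partner CHOP switch on genes for amino acid supply, genes that restrain growth signalling, genes of cell death, and PPP1R15A, which recruits a phosphatase to eIF2 alpha and closes the loop. ATF3, CEBPB and PPP1R15A are also known as early response genes that other stimuli induce.

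Total counts on genes lay between 15657593 and 17036565 per library, and 3 counts corresponded to 0.160 to 0.222 CPM (counts scaled to a fixed library total, with TMM factors of 0.85 to 1.11). The keratin transcripts KRT8, KRT18 and KRT19 and the mesenchymal marker VIM were abundant in all 6 libraries. EPCAM and CDH1 had at most 5 counts in any library, so those epithelial markers were near absent. Among 5 leukocyte markers the summed level was at most 0.443 CPM, and among 5 acinar and islet markers at most 0.106 CPM. The 5 fibroblast markers summed to 8.13 to 8.92 CPM in BP and 12.7 to 14.4 CPM in BP+Huaier, with COL1A1 at 1.22 to 1.42 and 5.19 to 6.43 CPM, COL3A1 at 6.76 to 7.32 and 6.58 to 7.55 CPM, and DCN and LUM at 0 in every library. The 4 endothelial markers summed to 17.6 to 21.1 CPM in BP and 12.1 to 14.7 CPM in BP+Huaier, nearly all from CDH5. The part of these markers in the results was not tested. BP+Huaier libraries differed more among themselves than BP libraries did. The chi-square per degree of freedom between a pair of libraries, near 1 for sampling noise, was 3.71 to 9.85 among BP libraries, 17.6 between BP+Huaier 1 and 2, 77.9 between BP+Huaier 1 and 3, and 52.3 between BP+Huaier 2 and 3.

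With Huaier added, 8 of the 10 axis genes rose and 0 fell. DDIT3 rose most, 10.0-fold, followed by ATF3 at 5.24-fold, PPP1R15A at 4.88-fold, CEBPB at 3.78-fold, DDIT4 at 3.32-fold, TRIB3 at 2.85-fold, SESN2 at 2.21-fold and ATF4 at 1.52-fold. CHAC1 and ATF5 did not pass the test. The test was edgeR's quasi-likelihood test with Benjamini-Hochberg adjustment over all genes tested, at an adjusted p under 0.05, and it called 14.4% of all tested genes higher and 15.0% lower. For 9 of the 10 genes every BP+Huaier library lay above every BP library, where 21.9% of all tested genes showed this. The median log2 fold change was 1.62 over the 10 genes and -0.02 over all tested genes. The number of axis genes called was 7 without BP 1, BP 2 or BP 3, when 5.27%, 5.46% and 6.61% of tested genes were called higher, and 7 without BP+Huaier 2, with 6.08%. It was 8 without BP+Huaier 1, with 11.4%, and 10 without BP+Huaier 3, with 28.8%. With DESeq2 size factors, DESeq2, limma-voom, no filter and a filter at 5 CPM, which left out CHAC1, it was 8 each time. The shares of tested genes called higher were then 15.2%, 18.4%, 14.1%, 9.09% and 14.3%. The number of axis genes called was 8 with a trend on GC content and transcript length removed, beside 19.4%. It was 8 with that and the replicate block, beside 17.0%. It was 7 with the block alone, beside 9.03%, 7 with library size alone, beside 7.00% higher and 19.7% lower, and 7 at an adjusted p under 0.01, beside 5.50%.

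**Figure D1:**
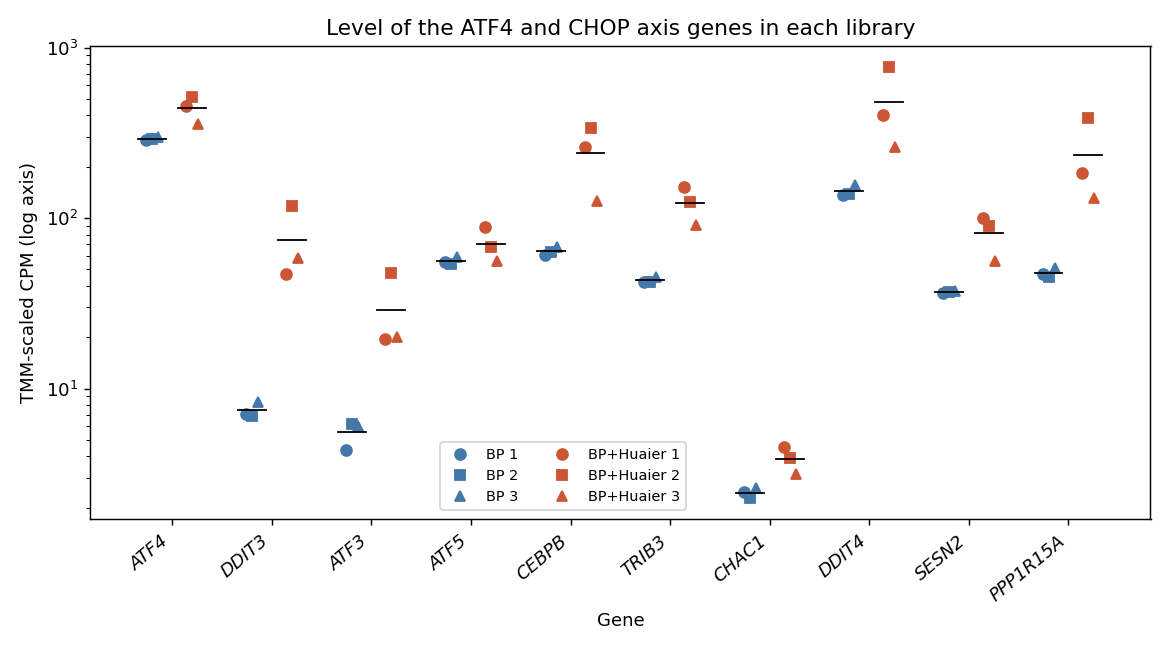
TMM-scaled CPM (log axis) of the 10 axis genes in each library, with BP libraries in blue, BP+Huaier libraries in red, a marker shape per replicate number and a black line at each group mean. The BP libraries lie closer together than the BP+Huaier libraries for every gene, and ATF5 is the gene whose groups overlap.

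ATF4, the transcription factor at the head of the axis (ENSG00000128272.17, GRCh38 chromosome 22, 39519695 to 39522683), stood at 286, 290 and 297 CPM in BP 1, 2 and 3. In BP+Huaier 1, 2 and 3 it stood at 454, 516 and 356 CPM. All BP+Huaier libraries were above all BP libraries, and BP+Huaier 3 was the nearest to them. The log2 fold change was 0.60 ± 0.16 (SE), with an edgeR adjusted p of 0.0232. This call did not hold when any 1 BP library was left out (edgeR adjusted p = 0.106, 0.0989 and 0.0826 without BP 1, 2 and 3) or without BP+Huaier 2 (0.0953). Scaled by library size alone, ATF4 was 1.25-fold higher and not called (0.0502). Its processed pseudogenes, which could share reads with it, held at most 17 counts each in a library, beside at least 5031 for ATF4.

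DDIT3, or CHOP (ENSG00000175197.13, chromosome 12, 57516588 to 57521737, minus strand), is a transcription factor made under prolonged stress and is linked to cell death. It stood at 7.09, 6.87 and 8.39 CPM in BP 1, 2 and 3 and at 47.2, 118 and 58.1 CPM in BP+Huaier 1, 2 and 3. It was low in every BP library and the groups were far apart, with BP+Huaier 2 highest. The log2 fold change was 3.32 ± 0.34 (SE; edgeR adjusted p = 0.000887), the rise that ranked 13 of 15022 tested genes. Exons of DDIT3 overlapped MARS1 on the opposite strand over 355 bases, 27.2% of its exon length, and MBD6 over 58 bases. MARS1, the methionyl-tRNA synthetase, stood at 135 ± 1.70 CPM in BP and 167 ± 32.3 in BP+Huaier (SD, n = 3; edgeR adjusted p = 0.188). No source used here says whether the counting read the strand, so the part of these reads that came from DDIT3 was not tested.

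ATF3 (ENSG00000162772.17, chromosome 1, 212565334 to 212620777), a stress-induced relative of ATF4, stood at 4.34, 6.23 and 6.02 CPM in BP 1, 2 and 3. It rose to 19.6, 47.4 and 20.1 CPM in BP+Huaier 1, 2 and 3. BP+Huaier 1 and 3 were alike and BP+Huaier 2 stood above them, and no BP+Huaier library reached down to the BP range. The log2 fold change was 2.39 ± 0.36 (SE; edgeR adjusted p = 0.00284). CEBPB (ENSG00000172216.6, chromosome 20, 50190830 to 50192668), a C/EBP family factor that pairs with ATF4 and CHOP, stood at 60.8, 63.1 and 67.7 CPM in BP. In BP+Huaier 1, 2 and 3 it stood at 263, 336 and 125 CPM, again with BP+Huaier 3 lowest and above every BP library. The CEBPB log2 fold change was 1.92 ± 0.31 (SE; edgeR adjusted p = 0.00351). The antisense gene CEBPB-AS1 overlaps 12.6% of the exon bases of CEBPB. It was low and went the other way, from 1.85 ± 0.40 to 0.412 ± 0.16 CPM (SD, n = 3; edgeR adjusted p = 0.0061). Whether the counting read the strand is not known, and its part in the values of both genes was not tested.

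ATF5 (ENSG00000169136.12, chromosome 19, 49928702 to 49933935), which is regulated in translation like ATF4 and is known for the mitochondrial stress response, was the member with overlapping groups. It stood at 55.5, 53.7 and 59.4 CPM in BP 1, 2 and 3 and at 88.5, 67.4 and 56.0 CPM in BP+Huaier 1, 2 and 3. BP+Huaier 3 lay inside the BP range. The fold was 1.26, with a 95% interval from 0.95 to 1.66, and the edgeR adjusted p was 0.185. Without BP+Huaier 3 it was called, at 1.40-fold (edgeR adjusted p = 0.00374), when 28.8% of all tested genes were called higher. With a trend on GC content and transcript length removed from each library, the fold was 1.02. NUP62, a nuclear pore gene read from the other strand, shares 19.5% of the exon bases of ATF5 and was called higher (log2 fold change 0.48, edgeR adjusted p = 0.0329).

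Among the effectors, TRIB3 (ENSG00000101255.12, chromosome 20, 362835 to 397559) encodes a pseudokinase that binds AKT and ATF4 and restrains both. It stood at 42.0, 42.0 and 45.1 CPM in BP 1, 2 and 3 and at 153, 124 and 91.6 CPM in BP+Huaier 1, 2 and 3. The groups were apart, and the order within BP+Huaier was not that of DDIT3, since BP+Huaier 1 was highest. The log2 fold change was 1.51 ± 0.19 (SE; edgeR adjusted p = 0.00157), the smallest adjusted p in the axis after that of DDIT3.

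DDIT4 (ENSG00000168209.6, chromosome 10, 72273919 to 72276036) and SESN2 (ENSG00000130766.5, chromosome 1, 28259518 to 28282491) both restrain the growth kinase complex mTORC1, DDIT4 through the TSC complex and SESN2 as a leucine sensor that acts on GATOR2. DDIT4 stood at 137, 138 and 157 CPM in BP 1, 2 and 3 and at 405, 765 and 263 CPM in BP+Huaier 1, 2 and 3. SESN2 stood at 36.6, 37.0 and 37.4 CPM in BP and at 99.8, 89.6 and 56.0 CPM in BP+Huaier 1, 2 and 3. Both genes were higher in 3 of 3 BP+Huaier libraries, with BP+Huaier 3 nearest to BP in each. The log2 fold change was 1.73 ± 0.34 (SE) for DDIT4 and 1.14 ± 0.21 for SESN2, with edgeR adjusted p of 0.00695 and 0.00549. Within BP the 3 SESN2 values differed by a coefficient of variation of 1.17%, the smallest of the 10 genes.

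CHAC1 (ENSG00000128965.13, chromosome 15, 40952962 to 40956512), an enzyme that degrades glutathione and a well-known target of ATF4, was the member with the fewest reads. It had 45, 43 and 44 counts in BP 1, 2 and 3 and 65, 53 and 55 in BP+Huaier 1, 2 and 3. Scaled, these were 2.47, 2.29 and 2.60 CPM in BP and 4.54, 3.92 and 3.17 CPM in BP+Huaier, so that the groups did not overlap. The fold was 1.58, with a 95% interval from 1.10 to 2.26, and the edgeR adjusted p was 0.0608. It was called without BP+Huaier 3, at 1.74-fold (edgeR adjusted p = 0.00844), when 28.8% of all tested genes were called higher. That was the only call in 14 refits, and the filter at 5 CPM left CHAC1 untested. With a trend on GC content and transcript length removed the fold was 1.25 (edgeR adjusted p = 0.236). On library size alone it was 1.30 (edgeR adjusted p = 0.214). The fitted folds of TRIB3 and DDIT3 lay outside the 95% interval of CHAC1. The 95% interval of TRIB3, from 2.12 to 3.84, overlapped that of CHAC1, and that of DDIT3, from 5.87 to 17.1, did not. The difference in fold between these genes was not tested.

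PPP1R15A, or GADD34 (ENSG00000087074.8, chromosome 19, 48872421 to 48876058), the stress-induced subunit that directs protein phosphatase 1 to eIF2 alpha, stood at 47.1, 45.2 and 50.9 CPM in BP 1, 2 and 3. In BP+Huaier 1, 2 and 3 it stood at 183, 385 and 132 CPM. Every BP+Huaier library was well above BP, and BP+Huaier 2 was the highest by a wide margin. The log2 fold change was 2.29 ± 0.35 (SE; edgeR adjusted p = 0.00299), and without BP+Huaier 2 the fold was 3.33.

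**Figure D2:**
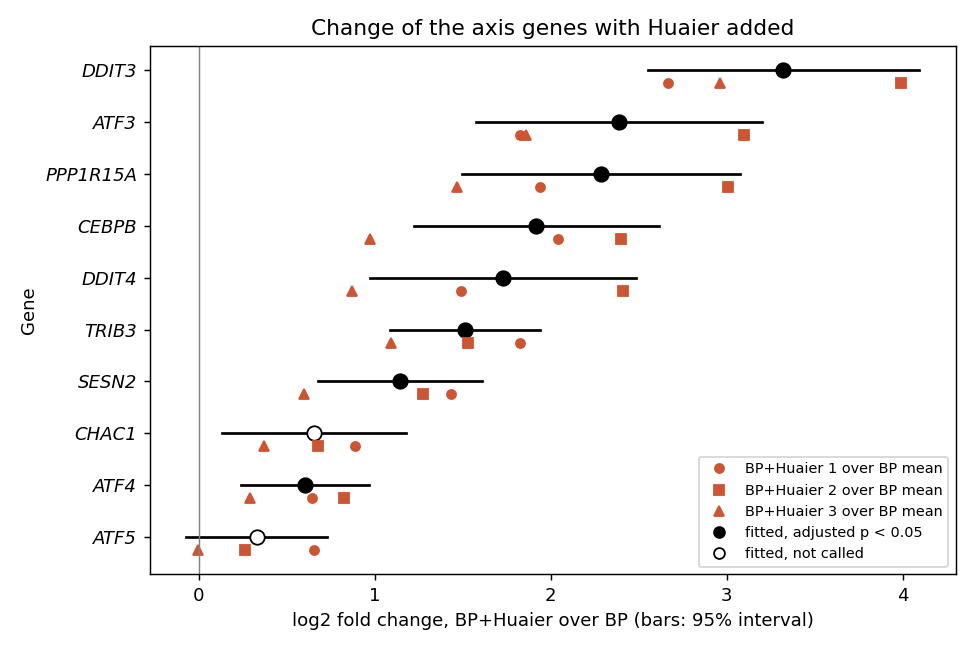
Log2 fold change of each axis gene, BP+Huaier over BP, from the edgeR fit (circles with 95% intervals, filled where the adjusted p was under 0.05), with each BP+Huaier library over the BP mean below it in red. DDIT3 is at 3.32 and ATF5 at 0.33, and for 8 of the 10 genes BP+Huaier 3 is the lowest of the red points.

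The BP+Huaier libraries did not rank alike for all genes. BP+Huaier 2 was the highest library for ATF4, DDIT3, ATF3, CEBPB, DDIT4 and PPP1R15A, and BP+Huaier 1 for TRIB3, CHAC1, SESN2 and ATF5. BP+Huaier 3 was the lowest of its group for 8 genes, and BP+Huaier 1 for the other two, DDIT3 and ATF3. Over the mean of BP, DDIT3 was 6.34-fold, 15.9-fold and 7.80-fold higher in BP+Huaier 1, 2 and 3, while TRIB3 was 3.55-fold, 2.88-fold and 2.13-fold higher. Coefficients of variation lay between 1.17% and 18.7% in BP and between 17.7% and 57.3% in BP+Huaier, with CHAC1 and ATF4 the least variable there and PPP1R15A the most.

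To compare levels between genes, CPM were divided by the exon length of the gene in kilobases, as the count table gives it. On this scale ATF4 was highest in BP, at 111 ± 2.26 CPM per kb (SD, n = 3), above DDIT4 at 67.9 ± 5.36 and CEBPB at 34.7 ± 1.94. ATF5, PPP1R15A, TRIB3, SESN2 and DDIT3 followed at 19.4, 15.6, 13.1, 10.7 and 5.70, and no neighbours in this order overlapped. ATF3 at 1.37 ± 0.26 and CHAC1 at 1.20 ± 0.0761 were lowest and overlapped each other. In BP+Huaier the order by mean was DDIT4 at 225 ± 122, ATF4 at 169 ± 30.8, CEBPB at 131 ± 58.3, PPP1R15A at 76.1 ± 43.6 and DDIT3 at 57.0 ± 29.3 CPM per kb. TRIB3, ATF5, SESN2, ATF3 and CHAC1 followed at 37.3, 24.4, 23.6, 7.19 and 1.89. There the values of neighbours overlapped down to SESN2, and only ATF3 and CHAC1 were each below all values of the gene before them. DDIT3 was thus in position 8 of 10 in BP and position 5 in BP+Huaier. These orders rest on that exon length, and no other length was tried. The part of genes on the other strand in the DDIT3 and ATF5 levels was not tested.

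Set against ATF4 in the same library, DDIT3 was at 4.96%, 4.74% and 5.64% of the ATF4 level per kb in BP 1, 2 and 3 and at 20.8%, 45.9% and 32.6% in BP+Huaier 1, 2 and 3. PPP1R15A went from 13.3% to 14.6% in BP to between 31.6% and 63.6%, CEBPB from 30.2% to 32.4% in BP to between 50% and 92.7%, and ATF3 from 0.98% to 1.39% in BP to between 2.80% and 5.95%. For these genes, and for TRIB3, DDIT4 and SESN2, no BP+Huaier value overlapped a BP value. How many of all tested genes separate in this way on their ratio to ATF4 was not counted. The fitted fold of each of these genes was above that of ATF4, so the ratios largely restate those folds. CHAC1 kept between 1.01% and 1.11% of the ATF4 level in BP and between 0.97% and 1.27% in BP+Huaier, and ATF5 was at 16.8% to 18.1% in BP and 11.8% to 17.6% in BP+Huaier. For CHAC1 and ATF5 the groups overlapped. The exact two-sided permutation test of the log2 ratio gave p = 0.10 for each of the 7 genes without overlap, the smallest p that 3 libraries against 3 allow, 0.70 for CHAC1 and 0.30 for ATF5. Adjusted over the 9 ratios, which share ATF4 as denominator, the exact p of those 7 was 0.129.

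**Figure D3:**
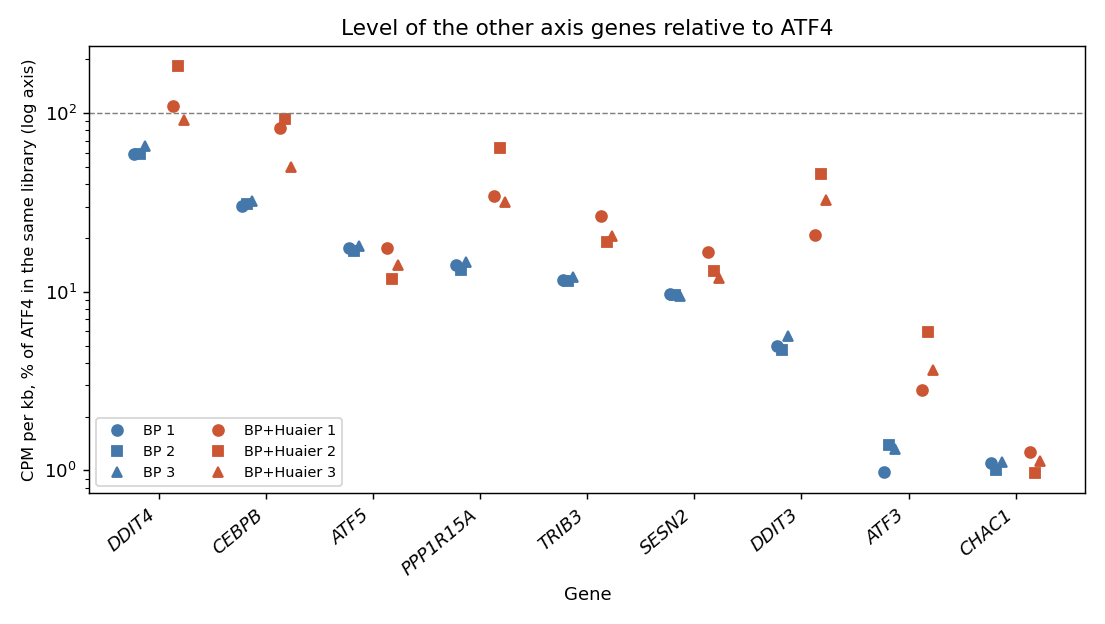
CPM per kb of the other 9 axis genes as a percent of ATF4 in the same library (log axis; dashed line at 100%), with BP libraries in blue and BP+Huaier libraries in red. DDIT4 passes the ATF4 level in BP+Huaier 1 and 2, at 110% and 183%, while CHAC1 and ATF5 overlap between the groups.

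Because the axis genes are known to be driven through ATF, C/EBP and AP-1 sites, the RefSeq promoter windows of all 10 (GRCh38.p14, 250 bases before to 50 after a start, 18 windows) were searched on both strands for 4 motifs. Of these, TGATGNAA is the core of the composite C/EBP-ATF site that ATF4 binds, TGACGTCA the cyclic AMP response element and TGANTCA the AP-1 site. The last was the ER stress response element, searched as a strict 19-letter pattern with CCAAT and CCACG at a fixed spacing. The matches are given in capitals, each within 30 bases on the strand of the gene, to show which axis genes carry which letters.
CHAC1, chr15:40953251-40953280, plus strand, composite site read on the other strand: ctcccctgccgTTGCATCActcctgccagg
ATF3, chr1:212565205-212565234, plus strand, composite site: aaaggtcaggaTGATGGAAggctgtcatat
PPP1R15A, chr19:48872352-48872381, plus strand, cyclic AMP response element: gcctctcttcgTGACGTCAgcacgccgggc
DDIT3, chr12:57520737-57520766, minus strand, AP-1 site: gcgcgcgcgcaTGACTCAcccacctcctcc
ATF5, chr19:49928707-49928736, plus strand, AP-1 site: ggagagtgctgTGACTCAtgctggactcta

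The composite core occurred in 2 of the 18 windows, of CHAC1 and ATF3, and in 3.62% of all 35116 windows. The cyclic AMP response element occurred in 1 of the 18, of PPP1R15A, and in 1.85% of all windows. The AP-1 site occurred in 3 of the 18, of ATF5 and, as 1 site in overlapping windows, of DDIT3, and in 7.71% of all windows. The ER stress response element occurred in 0 of the 18 and in 0.0769% of all windows. Windows of 1 gene can overlap, and the shares were not compared by a test. Of the genes with a match, DDIT3, ATF3 and PPP1R15A rose and CHAC1 and ATF5 did not pass the test. The matches are descriptions of letters, and these windows leave out sites farther from the start or inside the gene. In PPP1R15A the element lay from 58 to 51 bases before the start, as the 250 bases before that start show with the element in capitals (chr19:48872171-48872420, plus strand):
PPP1R15A: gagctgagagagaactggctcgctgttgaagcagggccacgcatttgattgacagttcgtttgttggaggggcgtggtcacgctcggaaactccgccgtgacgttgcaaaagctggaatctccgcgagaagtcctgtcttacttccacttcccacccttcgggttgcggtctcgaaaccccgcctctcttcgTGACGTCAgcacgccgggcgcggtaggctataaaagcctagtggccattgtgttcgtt

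Upstream of the axis, the kinases of eIF2 alpha did not pass the test. EIF2AK1 (HRI, the heme sensor) stood at 236 ± 11.6 and 255 ± 14.7 CPM in BP and BP+Huaier (SD, n = 3), EIF2AK2 (PKR, the double-stranded RNA sensor) at 120 ± 13.3 and 96.5 ± 25.3, EIF2AK3 (PERK, the ER sensor) at 13.4 ± 1.75 and 18.4 ± 3.96, and EIF2AK4 (GCN2, the amino acid sensor) at 120 ± 10.6 and 105 ± 9.59. Their edgeR adjusted p were 0.518, 0.241, 0.110 and 0.306. EIF2AK2 and EIF2AK4 were called lower without BP+Huaier 3 (edgeR adjusted p = 0.00134 and 0.0434). That refit called 9245 genes in either direction, beside 4406 in the main fit. EIF2AK3 was called higher without BP+Huaier 1 (edgeR adjusted p = 0.0286), beside 11.4% of all tested genes. It was also called higher with the GC and length trend removed (edgeR adjusted p = 0.0197), beside 19.4%. These kinases act by being switched on as proteins, which these data do not measure. Of 15 kinases, activators, eIF2 and eIF2B subunits 0 rose and 1 fell, beside 14.4% and 15.0% of all tested genes. The 1 was OMA1, the mitochondrial protease that cleaves DELE1 to activate HRI, at 13.2 ± 1.67 and 6.82 ± 1.73 CPM (edgeR adjusted p = 0.0131), a call that was lost without BP 1, BP 2 or BP+Huaier 2 (0.0683, 0.0517 and 0.0565). Of the other phosphatase subunits 1 of 4 rose, beside 14.4% of all tested genes: PPP1R15B, the constantly made counterpart of PPP1R15A, at 59.2 ± 5.87 and 96.5 ± 24.5 CPM (edgeR adjusted p = 0.0272). That call was lost without BP 1, 2 or 3 (0.091, 0.0766 and 0.0944), without BP+Huaier 2 (0.0936), on library size alone (0.183), with the replicate block (0.0529) and with the filter at 5 CPM (0.0613).

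Of 16 tested ATF and C/EBP relatives 3 rose and 0 fell, with a median log2 fold change of 0.15, where 14.4% of all tested genes rose and 15.0% fell. The share of rises in this list was near that of all tested genes. The 3 were ATF7 and NFIL3, each 1.75-fold higher, and CREB3L2, a factor of the ER membrane, 1.43-fold higher (edgeR adjusted p = 0.00896, 0.023 and 0.036). NFIL3 and CREB3L2 lost their calls without BP 1, 2 or 3 and without BP+Huaier 2 (edgeR adjusted p between 0.065 and 0.114), and ATF7 lost its call without BP 1 (0.0572). On library size alone 0 of the 16 were called higher, beside 7.00% of all tested genes, and without BP 1 likewise 0, beside 5.27%. CEBPG, the usual dimer partner of ATF4, stood at 36.9 ± 2.61 and 47.1 ± 7.54 CPM (edgeR adjusted p = 0.112). It was called higher with the GC and length trend removed (edgeR adjusted p = 0.00589), beside 19.4% of all tested genes. Among the 6 paralogs of the effectors 1 rose, a share near the 14.4% of all tested genes. TRIB1, a pseudokinase like TRIB3, went from 5.00 ± 0.39 to 14.8 ± 3.97 CPM, 2.94-fold (edgeR adjusted p = 0.00228), while TRIB2, SESN1, SESN3, DDIT4L and CHAC2 were not called.

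Of the genes known as targets of CHOP, 5 of 8 rose and 1 fell, beside 14.4% and 15.0% of all tested genes. BBC3, which encodes the pro-apoptotic protein PUMA, went from 27.5 ± 5.60 to 159 ± 59.9 CPM (SD, n = 3), 5.79-fold (edgeR adjusted p = 0.00127). BCL2L11, which encodes BIM, stood at 19.5 ± 1.36 CPM in BP and 37.3 ± 2.94 in BP+Huaier, 1.91-fold higher (edgeR adjusted p = 0.00282). The death receptor gene TNFRSF10B stood at 165 ± 5.16 and 238 ± 17.5 CPM, 1.44-fold higher (edgeR adjusted p = 0.0161), and lost its call without BP 1, 2 or 3 (0.0818, 0.0774 and 0.0753), without BP+Huaier 2 (0.0687), on library size alone (0.148) and with the replicate block (0.0644). The other rises, named after their values were seen, were PMAIP1, which encodes NOXA, at 1.43-fold and CARS1, the cysteinyl-tRNA synthetase, at 1.32-fold (edgeR adjusted p = 0.0299 and 0.0387). WARS1, the tryptophanyl-tRNA synthetase, was the one that fell, from 741 ± 10.7 to 513 ± 38.7 CPM (edgeR adjusted p = 0.0188). Its call was lost without BP 1, 2 or 3 (0.0983, 0.0917 and 0.0993), without BP+Huaier 2 (0.0724) and with the replicate block (0.0712). The list held 2 rises whenever a BP library or BP+Huaier 2 was left out, when between 5.27% and 6.61% of all tested genes were called higher, and 2, beside 7.00%, when scaled by library size alone.

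Of 20 genes of amino acid supply known as ATF4 targets 9 rose and 0 fell, beside 14.4% and 15.0% of all tested genes. The heavy chain SLC3A2 and the light chain SLC7A5 of a transporter of large neutral amino acids rose 3.23-fold and 2.33-fold, from 97.7 ± 0.56 to 315 ± 107 CPM and from 143 ± 8.67 to 335 ± 67.6 CPM (SD, n = 3; edgeR adjusted p = 0.00226 and 0.00223). ASNS, asparagine synthetase, stood at 4.68 ± 0.61 and 10.3 ± 0.63 CPM, 2.20-fold higher (edgeR adjusted p = 0.00331). The remaining 11 of the 20 did not pass. On the log2 scale the list had a median fold change of 0.47. Rises numbered 4, 5 and 5 without BP 1, 2 and 3, beside 5.27%, 5.46% and 6.61% of all tested genes, and 5 on library size alone, beside 7.00%, when 1 member was called lower. Of 17 further ATF4 targets tested 8 rose and 0 fell, again beside 14.4% and 15.0%. GDF15, a stress-induced cytokine, rose 12.5-fold, HERPUD1, which serves ER-associated degradation, 4.10-fold, and SQSTM1, the autophagy adaptor p62, 2.95-fold (edgeR adjusted p = 0.00112, 0.00161 and 0.00212). Rises in that list numbered 5 each without BP 1, 2, 3 and BP+Huaier 2, beside 5.27% to 6.61% of all tested genes.

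**Figure D4:**
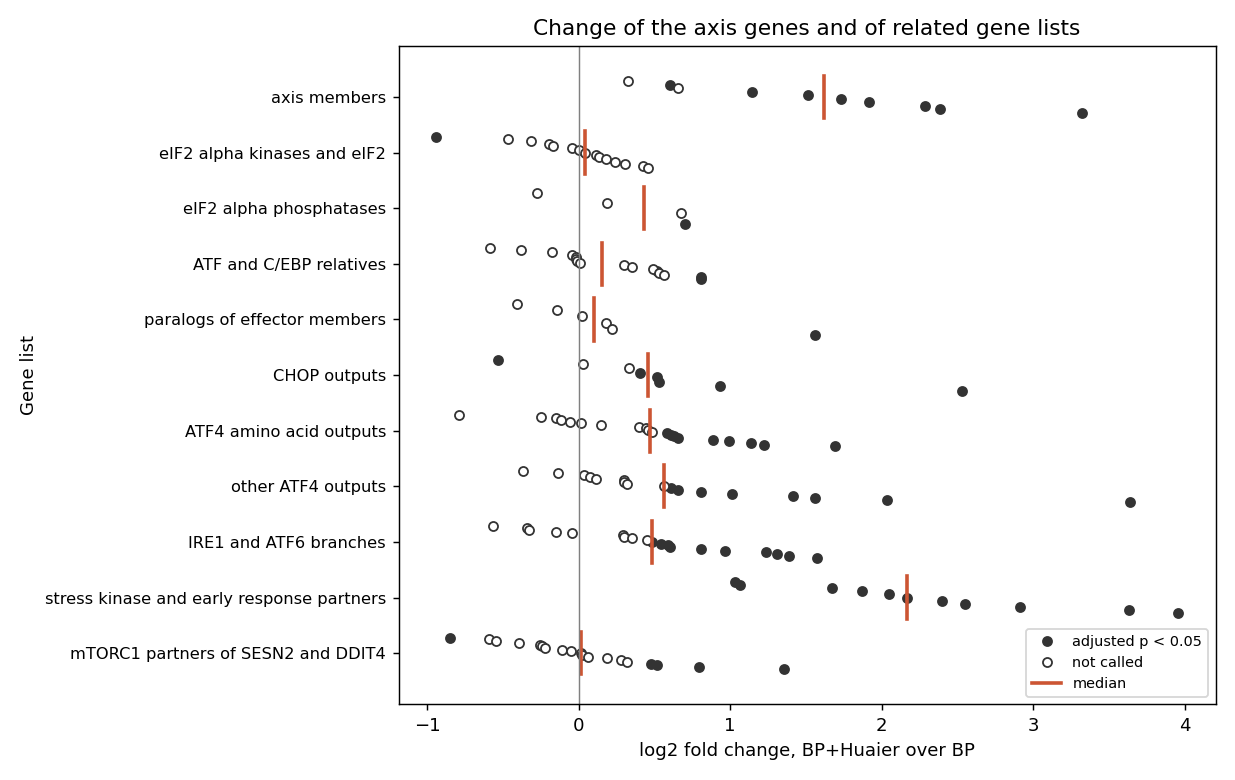
Log2 fold change (BP+Huaier over BP) of the axis genes and of each tested gene in 10 related lists, filled where the edgeR adjusted p was under 0.05, with a red bar at each median. The early response list lies furthest to the right, with a median of 2.17 beside 1.62 for the axis genes, and the eIF2 alpha kinase and mTORC1 lists are centred near 0.

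The other branches of the unfolded protein response of the ER are led by the sensors IRE1 (gene ERN1) and ATF6. Of 19 genes of these branches 10 rose and 0 fell, beside 14.4% and 15.0% of all tested genes, with a median log2 fold change of 0.48. The chaperone HSPA5 (BiP) went from 967 ± 15.2 to 2883 ± 1056 CPM (SD, n = 3; edgeR adjusted p = 0.00306). XBP1, whose transcript IRE1 splices, went from 90.3 ± 2.16 to 224 ± 44.8 CPM, 2.48-fold (edgeR adjusted p = 0.00169), and DNAJB9, a co-chaperone controlled by XBP1, rose 2.62-fold (0.00234). Rises numbered 4, 5 and 5 without BP 1, 2 and 3 and 5 without BP+Huaier 2, beside 5.27% to 6.61% of all tested genes, and 6 on library size alone, beside 7.00%. The splicing of XBP1 cannot be read from counts per gene.

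All 11 of the AP-1 and early response genes that act with or beside ATF3 rose, beside 14.4% of all tested genes, with a median log2 fold change of 2.17. FOSB, FOS and MAFF rose 15.6-fold, 12.4-fold and 7.54-fold (edgeR adjusted p = 0.00226, 0.00795 and 0.0012). Without BP+Huaier 2 the folds of FOSB and FOS were 8.52 and 4.39. Without BP 2, 10 of the 11 were called higher, beside 5.46% of all tested genes. Among the 19 tested genes of GATOR, TSC, Rag and mTORC1, through which SESN2 and DDIT4 act, 4 rose and 1 fell, beside 14.4% and 15.0% of all tested genes, with a median of 0.02. RHEB, the GTPase that activates mTORC1, rose 1.74-fold (edgeR adjusted p = 0.00459), CASTOR2, a paralog of the arginine sensor, rose 1.43-fold (0.018), and RPTOR, the scaffold of mTORC1, was 1.80-fold lower, from 79.6 ± 6.72 to 44.2 ± 4.03 CPM (0.00357). The other rises, named after their values were seen, were SEC13 of GATOR2 at 1.39-fold and the arginine sensor CASTOR1 at 2.57-fold, from only 1.20 ± 0.73 CPM (edgeR adjusted p = 0.0375 and 0.0484). On library size alone the split of this list turned to 1 higher and 4 lower, beside 7.00% and 19.7% of all tested genes. With the GC and length trend removed the split was 4 higher and 5 lower, when 19.4% of all tested genes were called higher and 5808 genes either way. Without BP+Huaier 3 it was 5 and 5, when 28.8% were called higher and 9245 genes either way. Without BP 1, 2 or 3 1 member was called higher, beside 5.27%, 5.46% and 6.61% of all tested genes. The CASTOR2 call was lost without BP 1, 2 or 3 (edgeR adjusted p = 0.106, 0.0872 and 0.0516) and without BP+Huaier 2 (0.0647). It was also lost on library size alone (edgeR adjusted p = 0.184), with the replicate block (0.0653), with the GC and length trend removed (1.22-fold, 0.102) and with the block and the trend together (0.123).

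The genes nearest to DDIT3 in pattern were sought among 10126 other protein-coding genes of at least 5 CPM, by the root mean square difference of log2 ratios to the BP mean over the 6 libraries. ZFP36, an RNA-binding protein that destabilises mRNAs with AU-rich elements, was nearest at 0.22, with folds of 7.62, 17.5 and 6.43 over BP in BP+Huaier 1, 2 and 3. TSC22D3, a glucocorticoid-induced leucine zipper gene, followed at 0.27, HBEGF, a ligand of the EGF receptor, at 0.30, and GDF15 and PRND at 0.34 each. Of the axis genes ATF3 was the nearest to DDIT3 at 0.70, followed by PPP1R15A at 0.74, with ranks of 29 and 34 among the same genes. CENPW, DRG1 and SLC29A1 were nearest to ATF4, each at 0.03. Axis genes of small change sit near many genes on this measure, and likeness over 6 libraries in 2 groups rests mostly on the difference between the groups.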

How the data were processed

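The authors deposited raw counts of reads on each gene. Their submitters' processing notes list fastp 0.20.0, HISAT2 2.1.0, featureCounts 1.6.1 and the build GRCh38. How featureCounts treated strand, overlaps and reads with several matches, and which annotation it read, are details not given in the sources used here.

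Of 60648 genes in whole lines, 44 second copies on Y with 0 counts were left out, as were 3 broken lines. A symbol was found for 99.77% of genes. Gene coordinates were taken from the deposited table, and GC content came from GENCODE release 29. The test used edgeR 4.0.16 under R 4.3.3 (filterByExpr, TMM, robust quasi-likelihood, group as the only term, Benjamini-Hochberg over 15022 genes). Standard errors and intervals of log2 fold changes are those implied by the test. Fold changes per gene are fitted values, CPM are mean ± SD over 3 libraries. The common biological coefficient of variation, as edgeR names it, was 18.1%. It is a single value over both groups, and the fit used the same dispersion of a gene for both. BP+Huaier libraries differed more among themselves than BP libraries did, and all may be technical replicates.

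The members and lists were chosen with earlier results of these data known. The rule named, from each list, the 3 most changed called genes with 5 CPM or more, any gene alone in its direction, and 10 fixed genes. SAMTOR, of the mTORC1 list, was not matched, and HLF, STC2 and FGF21 did not pass the filter. Alternatives were DESeq2 size factors, library size alone, DESeq2 1.42.0, limma-voom (limma 3.58.1), no filter, at least 5 CPM, the replicate number as a block, removal of a GC and length trend, both together, each library left out, and an adjusted p under 0.01. The steps were tested on simulated counts. Promoter sequences are from RefSeq, and figures were drawn with matplotlib 3.10.9.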

Additional observations from a re-analysis of the deposited data

How the results depend on the processing

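No alternative reversed the direction of an axis gene. Of 159 values of the 10 genes under the alternatives, 150 stayed on the same side of the threshold. Another 7 lost a call, all of them ATF4, and 2 gained one. The gains were ATF5 and CHAC1 without BP+Huaier 3, when 28.8% of all tested genes were called higher. CHAC1 had no value with the filter at 5 CPM. DDIT3, ATF3, CEBPB, TRIB3, DDIT4, SESN2 and PPP1R15A were called in all 15 refits, with DDIT3 between 7.14-fold and 11.9-fold. With the GC and length trend removed, folds of called genes fell as those of CHAC1 and ATF5 did. They were 1.31 for ATF4, 2.75 for CEBPB, 2.24 for TRIB3, 2.79 for DDIT4, 1.76 for SESN2 and 3.97 for PPP1R15A. DDIT3 and ATF3, at 10.3-fold and 5.37-fold, were instead slightly above the main fit. The number of axis genes called higher was 7 to 10 when 1 library was left out, beside 5.27% to 28.8% of all tested genes. It was 7 with library size alone, beside 7.00%, and 7 with an adjusted p under 0.01, beside 5.50%.

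Over all genes, 4406 were called, 1636 with an adjusted p under 0.01 and 2873 with at least 5 CPM, and 1719 to 9245 when 1 library was left out (1719, 1772 and 2077 without BP 1, 2 and 3, 1967 without BP+Huaier 2, 9245 without BP+Huaier 3). Scaled on library size alone, 1051 genes were higher and 2959 lower instead of 2160 and 2246, and the median log2 change over tested genes was -0.28 instead of -0.02. The cause of these shifts was not tested.

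With the replicate number as a block 7 axis genes and 3099 genes in all were called, and ATF4 was the axis gene lost (edgeR adjusted p = 0.0628). Deviations of same-numbered libraries from their group means correlated at 0.01, -0.06 and -0.28, and those of differently numbered libraries at -0.26 to 0.26. With 3 libraries a group, these values cannot decide whether the numbers pair the libraries. With the block and the GC and length trend removed, 8 axis genes and 5190 genes in all were called.

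CHAC1, at 43 to 65 counts a library, had the fewest counts of the axis genes, and the part of depth in its missing call was not tested.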
